A study of Mus musculus with 26 samples.

Results

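The 33 genes described here are a set of macrophage genes, measured in fetal XY gonads of the mouse. They are a list of gene names known for their expression in macrophages, set by no threshold on measured values but drawn up with earlier results of these data known. All 33 were found by gene identifier and symbol among the 57186 genes of the table that holds the Fgf9 deletions, and among the 31053 genes of the Meis1 table. XY gonads at E13.5 were dissected away from the mesonephros and frozen, and poly(A) RNA was sequenced from whole gonads. The groups are wild type (WT, n = 3), the Fgf9 deletions Δ306 (n = 3), Δ225 (n = 6), Δ104 (n = 4) and Δ93 (n = 6), and a Meis1 knockout (Meis1 KO, n = 4). Fgf9 encodes a secreted growth factor needed for testis development, and Meis1 encodes a homeobox transcription factor. The labels used here do not state the extent or zygosity of the deletions, the type of the Meis1 allele, the strain, the litters, or whether gonads of several embryos were pooled. They call the libraries of Δ225, Δ104, Δ93 and Meis1 KO biological replicates, but those of WT and Δ306 only replicates. The p-values thus measure the spread between these libraries, which may be technical in part. Whether WT and Δ306 were collected or sequenced apart from the other groups is not stated. Where WT or Δ306 is compared with the other groups, genotype and such a difference cannot be told apart.

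Macrophages settle in the gonad before birth, first from yolk sac progenitors and later from fetal monocytes. In the fetal testis they take up dying and misplaced cells and take part in the remodelling of blood vessels. Their survival depends on the receptor Csf1r and its ligands CSF1 and IL34, and their gene program depends on the transcription factor PU.1, the product of Spi1. In RNA of a whole organ these genes report on a small share of the cells, and fewer macrophages and less RNA per macrophage cannot be told apart.

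PU.1 is known to bind DNA around a purine-rich core, and the letters GAGGAA were searched on both strands of RefSeq promoter windows of build GRCm38.p6. A window runs from 250 bases before to 50 bases after an annotated start. Windows were found for 25 of the 33 genes, 29 windows in all. The core was present in 18 of the 29 windows (62.1%), against 28.3% of 32851 windows of all genes. Within the 120 bases before the start it was present in 11 of 29 (37.9%), against 11.6% of all. These are counts of windows and not of genes. Fcgr3, Ptprc, F13a1 and Ms4a7 have more than 1 window each, and the overlapping windows of Fcgr3 hold the same match. A match is a description of the letters and not a bound site. Only windows that hold the core in the 120 bases before the start are shown. Itgam and Pf4 are the genes called below. C1qb, Trem2 and Fcgr1 were picked, among windows with the core, as a complement chain, a receptor and an Fc receptor. They do not stand for all such genes. The windows of Cx3cr1, Ccr2, P2ry12, Fcer1g, Lyz2, Mpeg1, Ly86, Timd4 and Cd163 held no match, nor did 1 window each of Ptprc and Ms4a7. The only match of C1qc lay outside the 120 bases. Each run is the 120 bases before the start, 5′ to 3′ on the gene's strand, with the core in capitals.
Itgam, chr7:128062520-128062639, plus strand: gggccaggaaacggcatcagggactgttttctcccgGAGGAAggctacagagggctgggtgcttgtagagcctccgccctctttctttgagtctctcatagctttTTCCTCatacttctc
Pf4, chr5:90772315-90772434, plus strand: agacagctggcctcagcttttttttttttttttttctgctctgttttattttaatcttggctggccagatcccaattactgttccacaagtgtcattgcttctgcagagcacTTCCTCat
C1qb, chr4:136886201-136886320, minus strand: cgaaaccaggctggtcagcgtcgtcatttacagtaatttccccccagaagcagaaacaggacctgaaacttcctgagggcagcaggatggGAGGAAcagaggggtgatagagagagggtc
Trem2, chr17:48346281-48346400, plus strand: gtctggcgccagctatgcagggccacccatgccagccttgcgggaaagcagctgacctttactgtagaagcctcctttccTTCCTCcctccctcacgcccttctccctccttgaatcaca
Fcgr1, chr3:96293970-96294089, minus strand: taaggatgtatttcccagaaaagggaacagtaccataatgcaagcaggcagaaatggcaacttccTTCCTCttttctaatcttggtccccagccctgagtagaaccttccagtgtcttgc
The 120 bases of Itgam hold the core on both strands, at 84 and 15 bases before the start, and its full window holds another match after the start. In the other 4 windows it occurs once, at 8 bases before the start of Pf4 and 55 bases before that of Fcgr1.

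Total counts were 11.6 to 53.4 M per library in the table of deletions (median 36.7) and 35.5 to 51.7 M in the Meis1 table. The 3 WT libraries are in both tables, counted separately. Fgf9 was at 9.21 to 9.85 CPM (the usual count unit relative to library size, here with TMM-scaled totals) in WT, 2.17 to 2.94 in Δ306 and 2.30 to 4.75 in Δ93. It was called lower in Δ306 (log2 fold change −1.94, edgeR adjusted p 0.0148) and Δ93 (−1.63, adjusted p 0.00532), but not in Δ104 (−0.98, adjusted p 0.259) or Δ225 (−0.44, adjusted p 0.535). Δ104 libraries 1 to 4 had 2.72, 5.16, 6.98 and 4.52 CPM of Fgf9. Δ225 replicate 3 had 16.5 CPM, above all WT libraries, while the other 5 Δ225 libraries had 3.69 to 6.36 CPM, so this library differs in Fgf9 from the rest of its label. Meis1 was at 0.201 to 0.695 CPM in Meis1 KO and 62.1 to 109 CPM in WT of the same table. WT replicate 1 stood apart in germ cells, with 19.2 CPM summed over 6 germ cell genes against 515 and 759 CPM in the other WT libraries. Δ225 replicate 1 was the shallowest library, at 11.6 M counts. Replicates 2 and 3 of Δ225 had 23.3 and 20.2 M, and replicates 4, 5 and 6 had 46.8, 43.0 and 41.3 M. Chi-square per degree of freedom over genes was 8.78 to 19.7 among replicates 4 to 6 and 57.4 to 156 among replicates 1 to 3. Between these 2 sets it was 95.4 to 304, so the Δ225 libraries are not 1 even group. Whether the 2 sets were collected or sequenced apart is not stated.

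The set was detected throughout. Of the 33 genes, 31 had counts in all 22 libraries of the deletion table, among them Csf1r (69 to 577 counts), Adgre1 (9 to 171) and Ptprc (24 to 76). The scavenger receptor genes Timd4 and Cd163, markers of some tissue-resident macrophages, were near 0, with no count in 5 and 2 libraries. Cd163 did not pass the filter on low counts in the deletion table, so 32 genes were tested there, and neither gene passed it in the Meis1 table, where 31 were tested. Per kilobase of exon, C1qb had the highest WT level of the set (6.29 ± 1.16 CPM per kb, SD, n = 3), followed by Laptm5 (4.51 ± 0.929) and C1qa (4.03 ± 0.787). The place of Laptm5 holds for the deletion table, since the Meis1 table gives the same WT libraries 9.14 ± 0.793 CPM of it in place of 17.1 ± 3.52. Neighbours in this order mostly overlapped: the C1qb libraries lay between 5.12 and 7.43 CPM per kb and those of Laptm5 between 3.65 and 5.49. Csf1r came after 9 others at 2.08 ± 0.395 and Ptprc near the bottom at 0.0829 ± 0.0192 CPM per kb. Some of the genes are also known from other cells: Lyve1 from lymphatic endothelium, Pf4 and P2ry12 from platelets and their precursors, and Ccr2 and Itgam from monocytes and neutrophils.

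Libraries of 1 genotype were far apart in these genes, and no genotype stood apart from the others. Summed over the 33 genes, WT libraries 1 to 3 were at 135, 89.3 and 106 CPM, and Δ306 libraries 1 to 3 at 151, 69.7 and 138 CPM. The lowest, median and highest sums were 71.3, 91.6 and 134 CPM in Δ225, and 59.9, 86.5 and 151 CPM in Δ93. Δ104 libraries 1 to 4 were at 86.7, 95.9, 115 and 94.3 CPM. All 5 groups overlapped, and Δ306 alone spanned from 69.7 to 151 CPM.

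**Figure D1:**
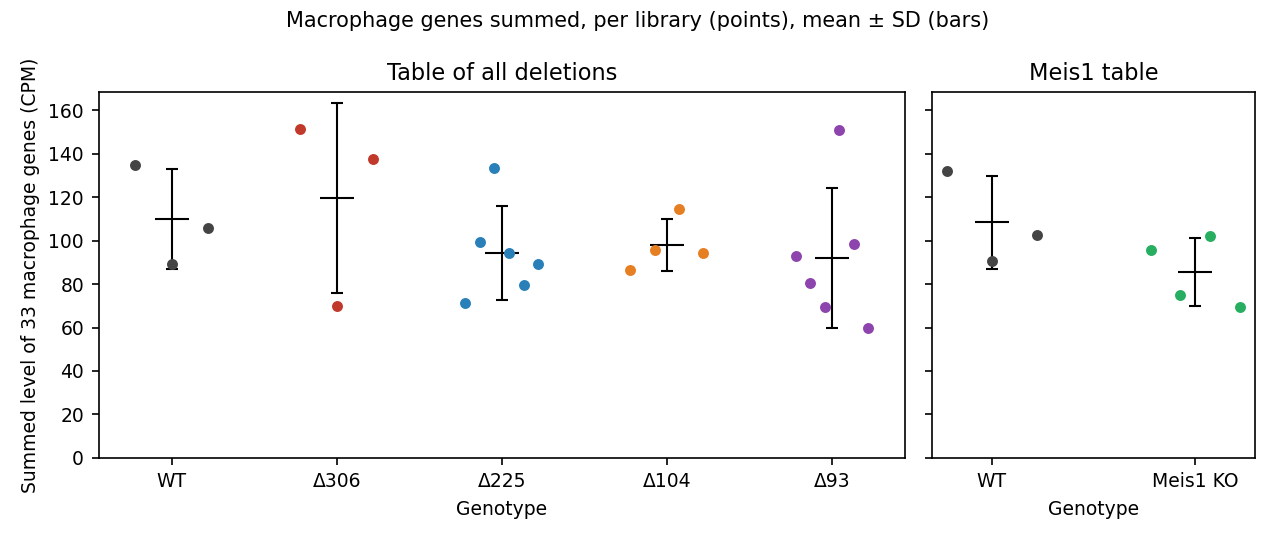
Summed level of the 33 macrophage genes (CPM, vertical axis) in each library by genotype, in the deletion table (left) and the Meis1 table (right), with points for libraries and bars for mean ± SD. Δ93 replicate 4 stands at 151 CPM while the other Δ93 libraries lie at or below 98.7 CPM, and every deletion group overlaps WT.

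Single libraries were high or low across most of the set. Δ93 replicate 4 was the highest of its 6 libraries at 29 of 32 genes, against 26.4% of all genes tested, with a median deviation of 0.92 log2 units above the group mean. Δ93 replicate 6 was the lowest at 20 of 32 (11.5% of all genes), with a median deviation of −0.60. Δ306 replicate 2 was the lowest of 3 at 28 of 32 (32.1% of all genes), with −0.61. WT replicate 1 was the highest of 3 at 25 of 32 (41.2%) and WT replicate 2 the lowest at 27 of 32 (25.2%), while Δ225 replicate 3, the library with the high Fgf9 level, was the highest of 6 at 19 of 32 (18.8%). The genes share their libraries, so these counts describe the libraries and are not independent tests.

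**Figure D2:**
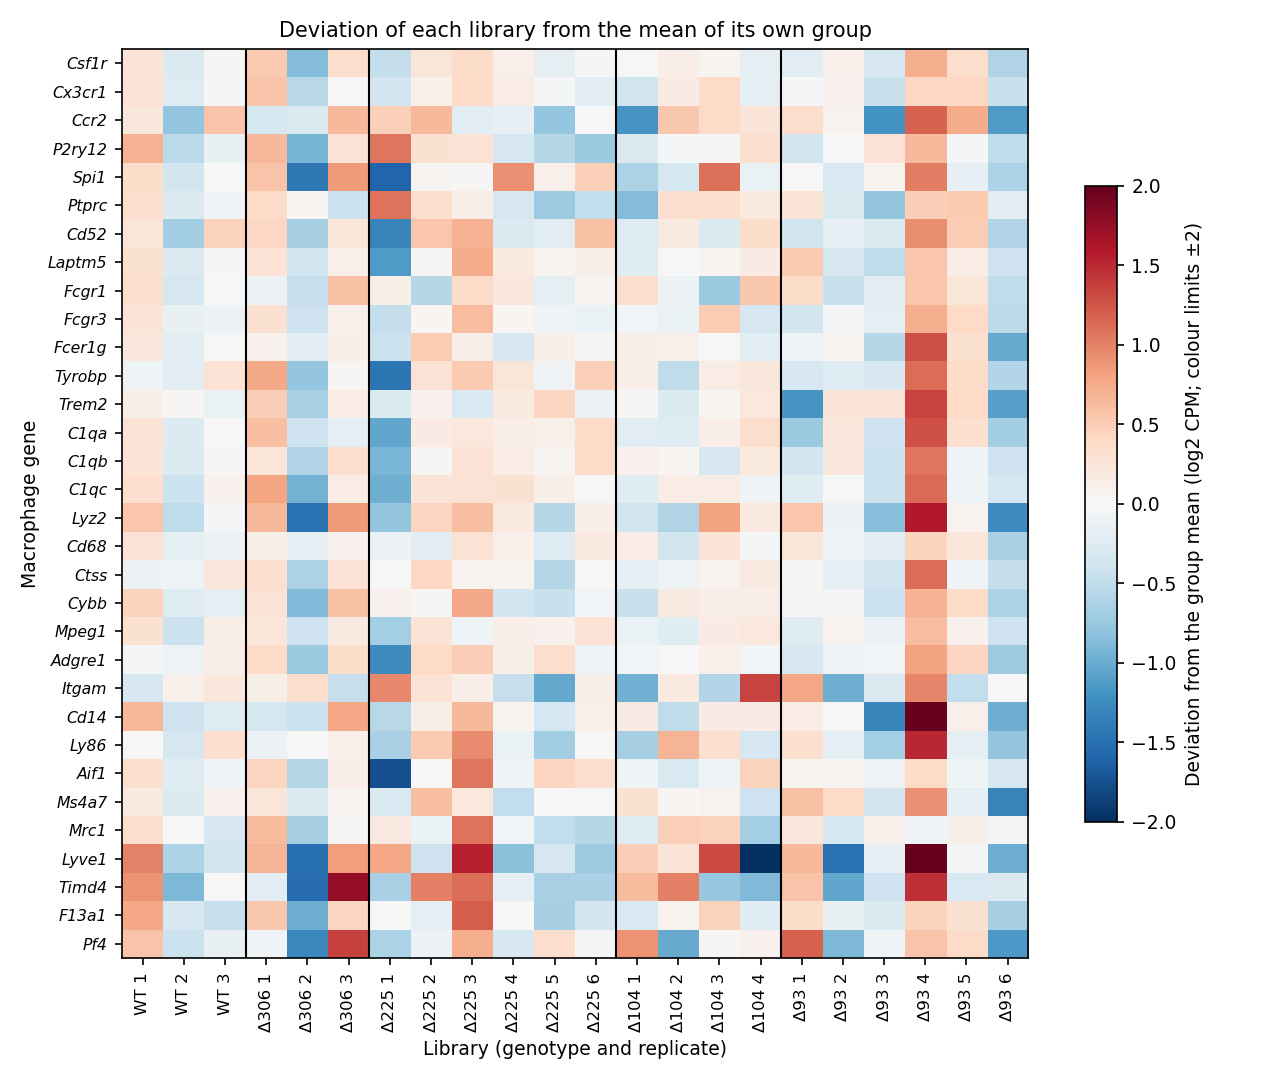
Deviation of each library from the mean of its own genotype (log2 CPM, colour, limits ±2) for the 32 macrophage genes tested (rows) in the 22 libraries of the deletion table (columns). The columns of Δ93 replicate 4 and Δ306 replicate 2 have nearly 1 colour, red and blue, and Δ225 replicate 1 is mixed.

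Δ225 replicate 1 did not follow this pattern. It was the lowest of 6 at 18 of 32 genes (40.7% of all genes), but the highest at Ptprc, P2ry12 and Itgam. The 9 genes above the group mean there had a median length of 52.5 kb from start to end of the gene, against 7.75 kb for the other 23. They were Ccr2, P2ry12, Ptprc, Fcgr1, Cybb, Itgam, Mrc1, Lyve1 and F13a1, named after their values were seen. Of these, Ccr2, Fcgr1 and Lyve1 span only 11061 to 12633 bases. Long genes below the group mean include Cx3cr1 (168264 bases), Adgre1 (124837) and Ly86 (73829). The median exon length differed too, at 5.81 kb for the 9 and 1.74 kb for the other 23. Whether the length of a gene plays a part in its level in this library was not tested.

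Other blood cell markers stood out in some of the same libraries. Δ93 replicate 4 had 59032 CPM summed over 13 erythroid genes, near the 55340 CPM of Δ93 replicate 1 and above the 5391 to 9234 CPM of the other 4. It also had 38.1 CPM over 13 monocyte and neutrophil genes against 8.47 to 15.0 in the other Δ93 libraries, and 40.6 CPM over 7 MHC class II genes against 6.08 to 9.56. Of these 40.6 CPM, 31.5 were H2-Ab1, which was at 0.849 to 4.53 CPM in the other Δ93 libraries. Against WT, 2 of the 7 were called lower in Δ93 (14.1% of all genes were called), H2-Aa (−2.39, edgeR adjusted p 0.0381) and their regulator Ciita (−1.37, adjusted p 0.0114). Lymphoid markers were at 1.99 to 13.6 CPM summed over 9 genes in the 22 libraries. The natural killer receptor Ncr1 was at 0 in 20 of them. The mast cell receptor Fcer1a was at 0 in all 22, but 4 of 8 mast cell genes passed the filter on low counts. Hdc was at 2.39 to 16.9 CPM and Gata2 at 5.46 to 93.1 CPM over the 22 libraries. Summed over the mast cell genes, libraries lay at 64.2 to 107 CPM in Δ306 and 67.9 to 97.7 CPM in Δ93. The sums were 11.1 to 39.2 CPM in Δ225, 13.2 to 84.4 CPM in Δ104 and 19.0 to 69.2 CPM in WT. They rest largely on Gata2, with a median of 47.1 CPM over the 22 libraries against 9.64 CPM for Hdc and 1.61 CPM for Cpa3. None of the 4 mast cell genes tested was called against WT in any deletion (0.061% to 14.1% of all genes were called). The part of these cells in the levels of the macrophage genes was not tested.

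Against WT, none of the macrophage genes was called in any of the 4 deletions. Calls were made with edgeR's quasi-likelihood test at an adjusted p under 0.05, with Benjamini-Hochberg adjustment over all genes tested, and the 4 comparisons share the same 3 WT libraries. In Δ306, 0 of 32 were called (6.43% of all genes), and none had an unadjusted p under 0.05 (21.9% of all genes). In Δ225, 0 of 32 were called (0.209% of all genes) and 3 had an unadjusted p under 0.05 (16.1% of all genes), Ccr2, Laptm5 and C1qb. In Δ104, 0 of 32 were called (0.061% of all genes), with none at an unadjusted p under 0.05 (15.7% of all genes). In Δ93, 0 of 32 were called (14.1% of all genes) and 3 had an unadjusted p under 0.05 (28.5% of all genes), Laptm5, Mpeg1 and Itgam. DESeq2 also called 0 in each of the 4.

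The genes differed from WT in both directions, and their medians lay near 0. The median log2 fold change over the 32 genes was 0.08 in Δ306, −0.08 in Δ225, −0.16 in Δ104 and −0.14 in Δ93, where the medians of all genes were 0.08, 0.04, 0.06 and 0.06. Only a part of the genes was measured closely enough to bound a change: the 95% interval of the log2 fold change lay wholly between −1 and 1 for 9 of 32 genes in Δ306, 11 in Δ225, 7 in Δ104 and 10 in Δ93. The libraries of a deletion and of WT did not overlap at 2 genes in Δ306 (37.6% of all genes), 2 in Δ225 (10.1%), 3 in Δ104 (18.1%) and 0 in Δ93 (24.7%), all lower than WT. These were Laptm5 and Itgam in Δ306, Trem2 and C1qb in Δ225, and Laptm5, C1qb and Adgre1 in Δ104. Without WT replicate 1, 0 genes were called in each of the 4 deletions, and the medians were 0.24 in Δ306, 0.07 in Δ225, 0.00 in Δ104 and 0.03 in Δ93. Without WT replicate 2, the lowest of the 3, they were −0.09, −0.25, −0.30 and −0.31, so the sign of 3 of the 4 medians depended on which WT libraries were used. Single deletion libraries moved them as well. The Δ93 median was −0.43 without Δ93 replicate 4 and 0.01 without Δ93 replicate 6, the Δ225 median was −0.31 without Δ225 replicate 3, and for Δ306 it came to −0.03 with replicate 1 left out and 0.28 with replicate 2 left out.

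Genes of some other gonadal cells were called in the same fits, where 6.43% of all genes were called in Δ306 and 14.1% in Δ93. Of 8 pre-granulosa genes, markers of the ovarian supporting cells, 6 were called higher in Δ306 and 7 in Δ93. Of 6 fetal Leydig cell genes, which serve androgen synthesis, 4 were called lower in Δ306 and 5 in Δ93. Lists of other cells had fewer calls. Of 6 germ cell genes, 0 were called in Δ306 and in Δ93. Of 8 Sertoli cell genes, 1 was called higher in Δ306, and 1 higher and 1 lower in Δ93, with medians of −1.88 and −2.41. Of 7 mesonephric genes, 0 were called in Δ306, and 1 higher and 1 lower in Δ93. Of 10 endothelial genes, 1 was called lower in Δ306 and 2 in Δ93, with 9 and 10 below 0. In Δ225 and Δ104 no pre-granulosa or fetal Leydig gene was called against WT (0.209% and 0.061% of all genes). The pre-granulosa genes still had a median log2 fold change of 2.10 in Δ104, with 8 of 8 above 0, beside 2.27 in Δ306, 2.72 in Δ93 and 0.23 in Δ225. The fetal Leydig genes had medians of −0.50 in Δ104 and 0.81 in Δ225. The Δ104 libraries were far apart, at 42.3 to 1668 CPM summed over the fetal Leydig genes. WT lay at 930 to 1604 CPM and Δ306 at 43.0 to 95.3 CPM. Summed over the Sertoli cell genes, Δ104 lay at 39.8 to 1992 CPM and WT at 1960 to 2409 CPM.

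**Figure D3:**
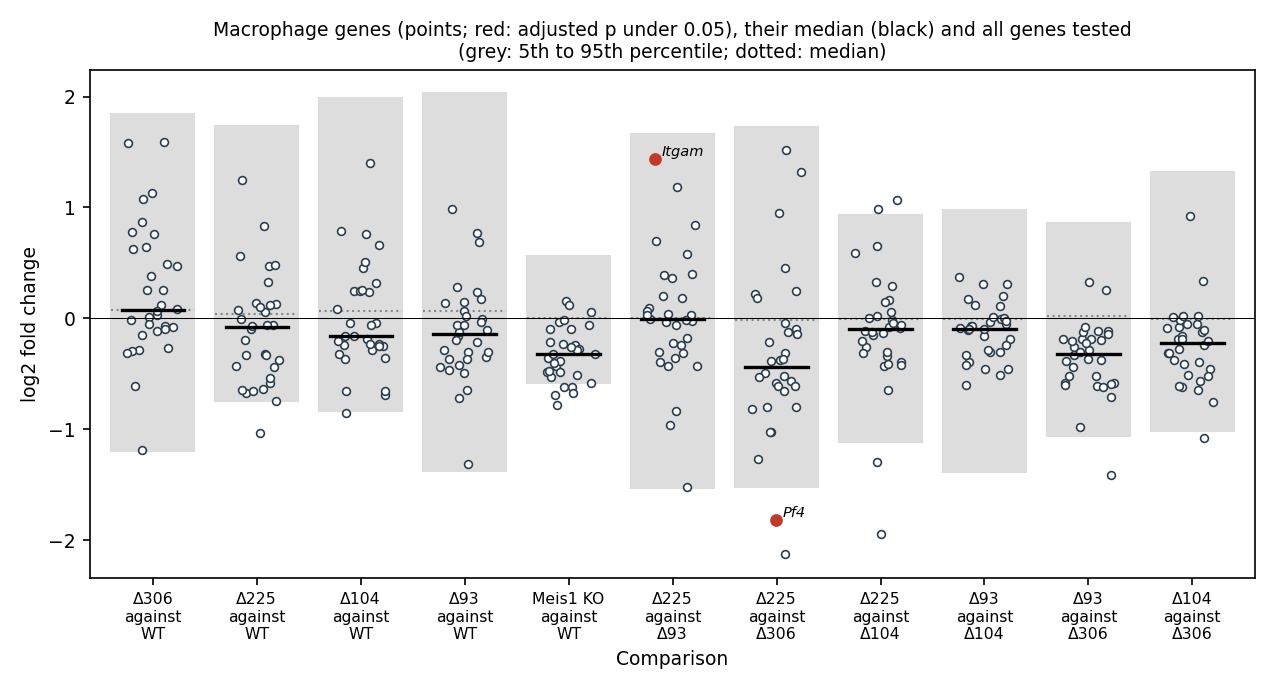
Log2 fold change (vertical axis) of each macrophage gene in the 11 comparisons, as points with their median as a black line, over the 5th to 95th percentile (grey) and median (dotted) of all genes tested. The 2 red points are Itgam in Δ225 against Δ93 (1.44) and Pf4 in Δ225 against Δ306 (−1.81), and in Meis1 KO 28 of 31 points lie below 0.

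In Meis1 KO the macrophage genes were mostly a little below WT, though edgeR called none. Of 31 macrophage genes tested, 28 had a log2 fold change below 0, where 49.5% of all genes did, and the median was −0.32 against 0.00 for all genes. With edgeR 0 of 31 were called (1.8% of all genes), with a lowest adjusted p of 0.154. At an unadjusted p under 0.05 there were 5 of 31 (19.3% of all genes), all with lower values: Cx3cr1, Spi1, Fcer1g, Cd68 and Cybb. DESeq2 called 1 gene, Cx3cr1, at −0.63 (adjusted p 0.0498). The WT and Meis1 KO libraries did not overlap at these 5 genes and Adgre1, 6 in all (19.7% of all genes), each lower in Meis1 KO. The 95% interval lay between −1 and 1 for 14 of 31 genes. WT replicate 1 was the highest of the 3 WT libraries here too, with a sum of 132 CPM against 90.6 and 103, and the sums in Meis1 KO replicates 1 to 4 were 95.6, 75.0, 102 and 69.6 CPM. Without WT replicate 1 the median was −0.22, without WT replicate 2 it was −0.51, and without a Meis1 KO library it lay between −0.44 and −0.25.

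Between the deletions, 2 of the genes were called, 1 in each of 2 comparisons. In Δ225 against Δ93, Itgam was called higher, 1 of 32 genes where 20.8% of all genes were called. In Δ225 against Δ306, Pf4 was called lower, 1 of 32 where 13.2% of all genes were called. The other 4 comparisons called 0 of 32: Δ225 against Δ104 (0.645% of all genes), Δ93 against Δ104 (0.0523%), Δ93 against Δ306 (0.0785%) and Δ104 against Δ306 (0.0654%), and DESeq2 called 0 in them as well. An unadjusted p under 0.05 was reached by 4 of 32 genes in Δ225 against Δ93, all higher (34.7% of all genes). In Δ225 against Δ306 there were 6 of 32, 2 higher and 4 lower (28.1% of all genes). In Δ225 against Δ104 it was reached by 2 genes (10.6% of all genes), P2ry12 and Pf4. It was reached by 0 in the other 3 comparisons between deletions (14.5%, 9.0% and 11.1% of all genes).

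Against Δ306, most of the genes had log2 fold changes below 0 in the other deletions, though Pf4 in Δ225 was the only call. The median log2 fold change of the 32 genes was −0.44 in Δ225 against Δ306, with 25 of 32 below 0, −0.32 in Δ93 against Δ306, with 30 of 32 below 0, and −0.22 in Δ104 against Δ306, with 27 of 32 below 0. The medians of all genes were −0.01, 0.02 and −0.01. These 3 comparisons share the same 3 Δ306 libraries. They also cross the split in the labels between Δ306 and the other deletions, so genotype and a difference between these sets of libraries cannot be told apart. Without Δ306 replicate 3 the medians were −0.15, −0.17 and −0.11, and without Δ306 replicate 1 they were −0.18, −0.13 and −0.05, while without Δ306 replicate 2, the lowest of the 3, they were −0.74, −0.54 and −0.54. The remaining comparisons had medians of −0.01 (Δ225 against Δ93), −0.10 (Δ225 against Δ104) and −0.09 (Δ93 against Δ104). Without Δ93 replicate 4 they were 0.13 (Δ225 against Δ93) and −0.32 (Δ93 against Δ104), and the median of Δ93 against Δ306 was −0.53. Leaving out 1 library at a time, they ranged from −0.15 to 0.13, from −0.17 to −0.03 and from −0.32 to 0.03. Libraries did not overlap at 3 genes in Δ225 against Δ306 (20.2% of all genes), Ccr2 higher and Cd14 and Ms4a7 lower, and at Fcer1g, lower, in Δ104 against Δ306 (11.2%). No gene was free of overlap in Δ225 against Δ93 (11% of all genes), Δ225 against Δ104 (1.67%), Δ93 against Δ104 (1.89%) or Δ93 against Δ306 (6.38%).

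Among the receptors, Csf1r, the receptor that macrophages need to survive, lay in the same range in all groups. WT libraries 1 to 3 had 14.3, 9.71 and 12 CPM and Δ306 libraries 15.8, 5.98 and 13.9 CPM. Δ104 libraries had 9.996, 11, 10.4 and 8.90 CPM, and the lowest, median and highest were 6.73, 9.61 and 12.2 in Δ225 and 6.07, 8.93 and 15.3 in Δ93. Every deletion overlapped WT, and Δ306 replicate 2 and Δ93 replicate 6 were the lowest libraries. Against WT the log2 fold changes were −0.01 ± 0.33 (SE) in Δ306, −0.32 ± 0.28 in Δ225, −0.25 ± 0.31 in Δ104 and −0.30 ± 0.28 in Δ93, and each 95% interval lay between −1 and 1.

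Cx3cr1, the receptor for the membrane-bound chemokine fractalkine, had a log2 fold change below 0 in each of the 5 comparisons with WT. WT libraries had 9.82, 6.68 and 7.91 CPM, Δ306 libraries 9.48, 4.31 and 6.32 CPM and Δ104 libraries 4.69, 6.93, 8.20 and 5.45 CPM. The lowest, median and highest were 4.68, 6.30 and 8.13 CPM in Δ225 and 4.16, 5.85 and 7.67 CPM in Δ93. These 4 deletions overlapped WT, and their differences, between −0.28 and −0.47, were not called (edgeR, lowest adjusted p 0.255). In the Meis1 table WT had 10.4, 7.16 and 8.37 CPM and Meis1 KO 6.77, 5.11, 6.50 and 4.14 CPM. All 4 Meis1 KO libraries lay below all 3 WT libraries, and the difference, −0.62 ± 0.21 (SE), had an edgeR adjusted p of 0.158 and was not called.

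Ccr2, the receptor that draws monocytes out of the blood toward CCL2, had its highest group median in Δ225. WT libraries had 0.728, 0.330 and 0.950 CPM and Δ306 libraries 0.395, 0.416 and 0.848 CPM, while Δ225 ran from 0.867 over a median of 1.44 to 2.43 CPM. Δ93 ran from 0.217 to 1.38 CPM and overlapped both. The log2 fold change of Δ225 was 1.25 ± 0.57 (SE) against WT, 1.52 ± 0.58 against Δ306 and 1.19 ± 0.44 against Δ93, with edgeR adjusted p of 0.287, 0.0876 and 0.0612, so none was called, while DESeq2 called the last 2 (adjusted p 0.0401 and 0.0356). P2ry12, a receptor for ADP, lay between 0.208 and 1.95 CPM over the 22 libraries, the highest being Δ225 replicate 1.

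Spi1, which encodes PU.1, was at 2.34, 1.38 and 1.82 CPM in WT and at 1.84, 0.416 and 2.26 CPM in Δ306. Δ104 libraries had 0.639, 0.786, 2.27 and 0.924 CPM, and the lowest, median and highest were 0.293, 1.06 and 1.94 CPM in Δ225 and 0.766, 1.15 and 2.55 CPM in Δ93. All deletions overlapped WT, and their differences, between −0.30 and −0.69, were not called (edgeR, lowest adjusted p 0.497). In Meis1 KO the libraries had 1.25, 1.1, 1.42 and 1.2 CPM against 2.51, 1.5 and 1.93 CPM in WT, without overlap. That difference was −0.67 ± 0.23 (SE) and had an adjusted p of 0.165 (edgeR), so it was not called.

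Ptprc, which encodes the leukocyte phosphatase CD45, had 1.91, 1.22 and 1.42 CPM in WT and 1.97, 1.55 and 1.1 CPM in Δ306. It reached 4.20 CPM in Δ225 replicate 1, above the other 5 Δ225 libraries (1.15 to 2.47 CPM), and lay between 0.629 and 1.63 CPM in Δ93 and 0.666 and 1.63 CPM in Δ104. Its difference between Δ225 and Δ93 was 0.84 ± 0.33 (SE, edgeR adjusted p 0.0781), not called. Cd52, a small surface glycoprotein of leukocytes, was at 0.0976 to 0.929 CPM over the 22 libraries.

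Laptm5, a lysosomal membrane protein of blood cells, depended on how the reads were counted. The same 3 WT libraries held 828, 711 and 629 Laptm5 counts in the deletion table and 359, 449 and 294 in the Meis1 table, while the median ratio over the macrophage genes was 1.00 in each library. In the deletion table WT was at 20.8, 13.8 and 16.6 CPM and Δ306 at 13.52, 8.30 and 11.8 CPM, without overlap. The log2 fold change of Δ306 was −0.61 ± 0.35 there and −0.36 in the smaller table that holds WT and the mutants taken as Δ306. In Δ225, Δ104 and Δ93 it was −0.65, −0.65 and −0.72 in the deletion table, none called.

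The 3 chains of C1q, the protein that opens the classical complement pathway and tags debris for uptake, are encoded side by side on chromosome 4 (chr4:136880129-136898803, minus strand, GRCm38, GENCODE M21), in the order C1qb, C1qc, C1qa. WT libraries 1 to 3 had 5.05, 3.42 and 4.11 CPM of C1qa, 8.09, 5.57 and 6.86 CPM of C1qb, and 6.18, 3.61 and 5.17 CPM of C1qc. In each of the 3 genes WT replicate 1 was the highest and replicate 2 the lowest. Δ93 replicate 4 had 8.14, 10.5 and 9.34 CPM of C1qa, C1qb and C1qc, above the other 5 Δ93 libraries, which reached at most 4.16, 5.83 and 4.21 CPM. Δ225 replicate 1 had 1.27, 2.05 and 1.76 CPM, below the other 5, which had at least 2.86, 3.99 and 3.56 CPM.

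Of the 3 chains, C1qb alone lacked overlap with WT in Δ225 and Δ104. Its 6 Δ225 libraries lay between 2.05 and 5.13 CPM, all below the lowest WT library, and its 4 Δ104 libraries had 4.55, 4.42, 3.43 and 4.91 CPM, also all below WT. The log2 fold change was −0.74 ± 0.32 (SE) in Δ225 and −0.66 ± 0.35 in Δ104, with edgeR adjusted p of 0.276 and 0.359, so neither was called. C1qa and C1qc overlapped WT in both, at −0.58 and −0.43 in Δ225. In Meis1 KO the 3 chains were at −0.28 (C1qa), −0.48 (C1qb) and −0.32 (C1qc), none called.

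Of the Fc receptor genes, Fcgr1 and Fcgr3, which bind immunoglobulin G, were at 0.521 to 1.55 and 1.43 to 4.08 CPM over the 22 libraries. Their signalling adaptor Fcer1g had 2.21, 1.63 and 1.87 CPM in WT, 2.41, 1.93 and 2.47 CPM in Δ306 and 1.80, 1.77, 1.63 and 1.41 CPM in Δ104, with 1.07, 1.54 and 2.13 CPM as the lowest, median and highest in Δ225 and 0.612, 1.29 and 3.24 CPM in Δ93. All Δ104 libraries lay below all Δ306 libraries, but WT overlapped with each deletion. The Meis1 KO libraries had 1.29, 1.61, 1.63 and 1.07 CPM against 2.30, 1.77 and 1.99 CPM in WT, a difference of −0.53 ± 0.22 (SE, edgeR adjusted p 0.241).

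Tyrobp, the adaptor also called DAP12, had 1.26, 1.15 and 1.64 CPM in WT and 3.55, 1.19 and 2.12 CPM in Δ306. Δ104 libraries had 1.72, 1.08, 1.74 and 1.85 CPM, and the lowest, median and highest were 0.390, 1.41 and 1.69 CPM in Δ225 and 0.944, 1.17 and 3.21 CPM in Δ93. Each deletion overlapped WT, and it was 1 of the 3 genes above 0 in Meis1 KO, at 0.12. Trem2, a lipid-sensing receptor that signals through Tyrobp, had 1.08, 1.01 and 0.897 CPM in WT and at most 0.844 CPM in Δ225, without overlap, and ran from 0.236 to 1.64 CPM in Δ93.

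The genes of the lysosome and of microbial killing were Lyz2 (lysozyme), Cd68 (a lysosomal glycoprotein), Ctss (cathepsin S), Cybb (the catalytic subunit of the phagocyte NADPH oxidase) and Mpeg1 (perforin-2). Mpeg1 had the lowest adjusted p of the set in Δ93 against WT: WT libraries had 8.79, 5.24 and 7.78 CPM and the 6 Δ93 libraries 3.37 to 7.0 CPM with a median of 4.47. The groups overlapped, and the difference of −0.64 ± 0.25 (SE) had an edgeR adjusted p of 0.0890. It was called without Δ93 replicate 4, the library in which it was highest, at −0.77 (adjusted p 0.0381). Lyz2 ran from 1.63 CPM in Δ93 replicate 6 to 12.2 CPM in Δ93 replicate 4, which were the lowest and the highest of all 22 libraries. Ctss was at 2.23 to 6.92 CPM and Cybb at 0.744 to 3.00 CPM over the 22 libraries, and Cybb had a log2 fold change of −0.78 in Meis1 KO (edgeR adjusted p 0.154). Cd68 was the most even of these genes, at 1.61 to 3.50 CPM, and in Meis1 KO it was at 1.56, 1.53, 2.40 and 1.65 CPM against 3.54, 2.47 and 2.66 CPM in WT, without overlap (−0.69 ± 0.23, edgeR adjusted p 0.159).

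Adgre1 encodes F4/80, the classical surface marker of mouse macrophages. WT libraries had 2.89, 2.76 and 3.24 CPM and Δ306 libraries 5.05, 2.29 and 5.02 CPM, so that 2 of 3 Δ306 libraries were above and 1 below all WT libraries. Δ104 libraries had 2.33, 2.46, 2.62 and 2.34 CPM, all below WT, at −0.28 ± 0.38 (SE, edgeR adjusted p 0.724). In Δ225 the lowest, median and highest were 0.878, 2.58 and 3.10 CPM, and in Δ93 1.53, 2.45 and 4.54 CPM.

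Itgam encodes CD11b, the integrin subunit of monocytes, neutrophils and many macrophages, and its promoter bases above hold the core on both strands. WT libraries had 0.653, 0.913 and 1.00 CPM, Δ306 libraries 0.395, 0.476 and 0.247 CPM and Δ104 libraries 0.167, 0.442, 0.233 and 1.07 CPM. Δ225 libraries had 0.398, 0.960 and 1.76 CPM as the lowest, median and highest, and Δ93 libraries 0.126, 0.272 and 0.663 CPM. All Δ306 libraries lay below WT, while Δ225 and Δ93 overlapped between 0.398 and 0.663 CPM. These are few reads, 4 to 47 counts per library.

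Itgam was called higher in Δ225 than in Δ93, with a log2 fold change of 1.44 ± 0.47 (SE, edgeR adjusted p 0.0341). The call was lost when any 1 of 7 libraries was left out: Δ93 replicate 2, 3, 5 or 6 or Δ225 replicate 1, 2 or 3. These Δ225 replicates are the shallower ones of that label. The difference then lay between 1.22 and 1.41, with the adjusted p between 0.0531 and 0.0766 (edgeR). It was also lost with no filter on low counts (adjusted p 0.0613). Against WT the differences were −1.19 ± 0.66 in Δ306 (edgeR adjusted p 0.302) and −1.31 ± 0.54 in Δ93 (adjusted p 0.110), neither called. In the smaller table the first was −1.25 (adjusted p 0.0577).

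The other genes of adhesion and sensing were low. Cd14, the co-receptor for bacterial lipopolysaccharide, was at 0.152 to 2.07 CPM, Ly86, a partner of a Toll-like receptor homologue, at 0.357 to 1.99 CPM, Aif1, the actin-bundling protein Iba1, at 0.0976 to 1.06 CPM, and Ms4a7, a membrane protein of macrophages, at 0.204 to 1.23 CPM. Δ93 replicate 4 was the highest of the 22 libraries for Cd14 and Ly86. No difference between groups was called for these 4 genes.

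**Figure D4:**
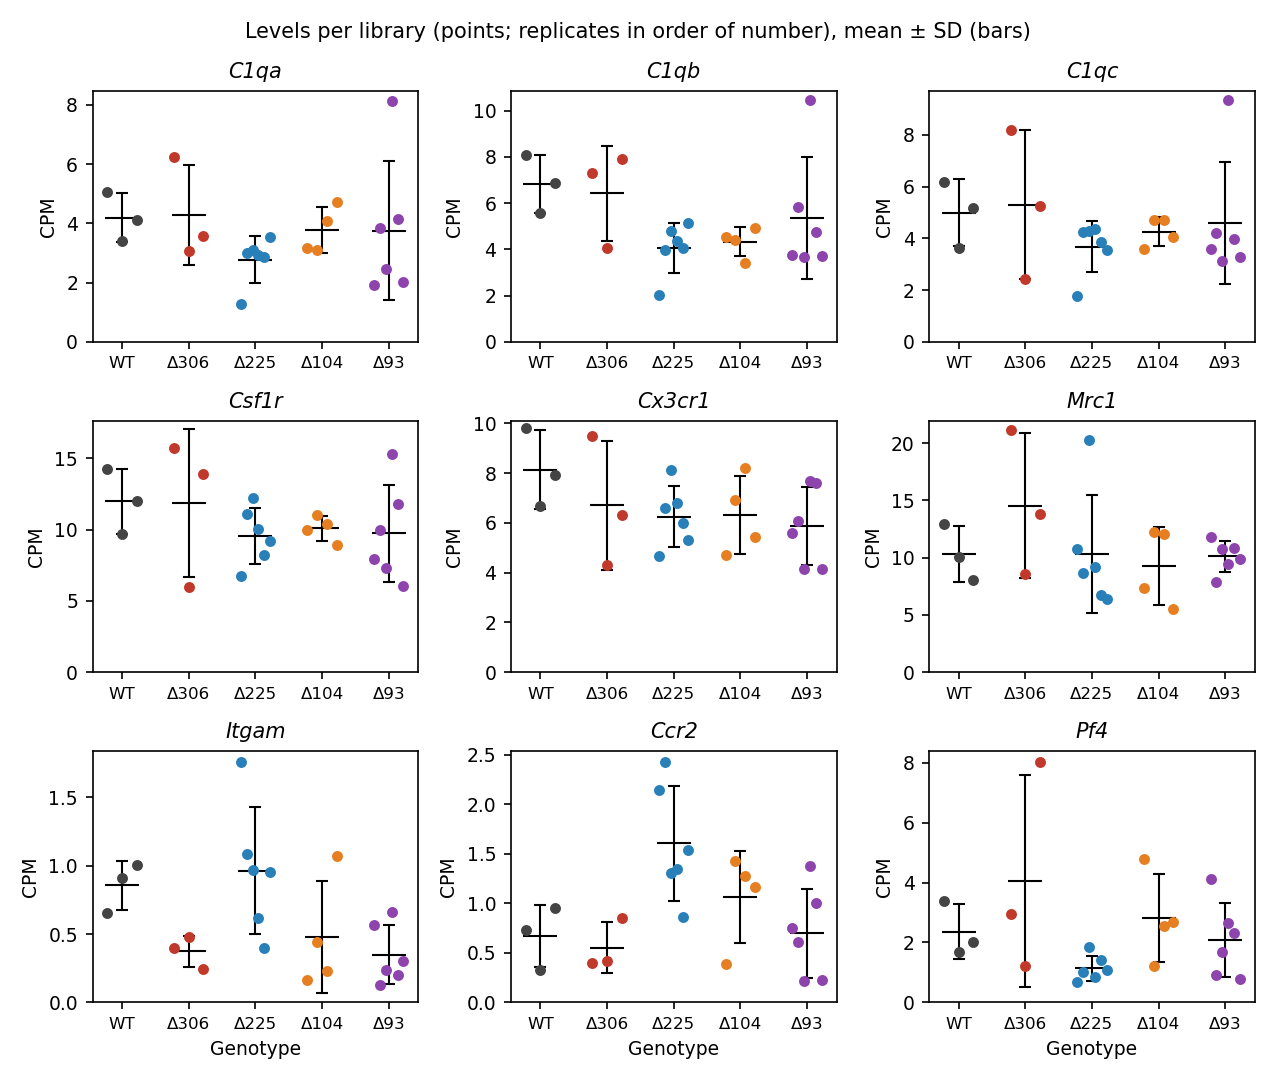
Levels (CPM, vertical axes) of 9 macrophage genes in each library of the deletion table by genotype, with points for libraries and bars for mean ± SD. Δ93 replicate 4 is the highest Δ93 library of the C1q genes (8.14, 10.5 and 9.34 CPM), Δ225 holds the highest Ccr2 libraries (up to 2.43 CPM), and 1 Δ306 library has 8.02 CPM of Pf4.

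Genes of tissue-resident scavenging macrophages spread widely within each group. Mrc1, the mannose receptor CD206, had 12.9, 10.1 and 8.04 CPM in WT, 21.2, 8.57 and 13.8 CPM in Δ306 and 7.36, 12.2, 12.1 and 5.50 CPM in Δ104. The lowest, median and highest were 6.40, 8.91 and 20.3 CPM in Δ225 and 7.84, 10.3 and 11.8 CPM in Δ93. All groups overlapped, and the high Δ225 library was replicate 3. The 95% intervals against WT reached from −0.32 to 1.3 in Δ306 and from −0.73 to 0.66 in Δ93.

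Lyve1, a hyaluronan receptor of vessel-associated macrophages and of lymphatic vessels, spread 13.4-fold within Δ104 and 14.2-fold within Δ93. WT libraries had 1.73, 0.524 and 0.633 CPM, Δ306 libraries 3.73, 0.773 and 4.17 CPM and Δ104 libraries 1.44, 1.23, 2.62 and 0.195 CPM. The lowest, median and highest were 0.640, 0.891 and 3.53 CPM in Δ225 and 0.232, 0.712 and 3.29 CPM in Δ93. The libraries of every group overlapped with WT. Timd4, a receptor for phosphatidylserine on dying cells, was at 0.151, 0 and 0.0528 CPM in WT, 0.0878, 0 and 0.530 CPM in Δ306 and 0.250, 0.344, 0.0581 and 0.0486 CPM in Δ104. It had 0, 0.0110 and 0.145 CPM as the lowest, median and highest in Δ225, with 0 counts in 3 of 6 libraries, and 0.0211, 0.0759 and 0.398 CPM in Δ93. Most of these values stand for a few reads. Cd163, the receptor for haemoglobin bound to haptoglobin, was at 0.0251, 0.136 and 0.106 CPM in WT, 0.0439, 0.149 and 0.106 CPM in Δ306, 0.111, 0.0491, 0.640 and 0 CPM in Δ104, 0, 0.0359 and 0.130 CPM as the lowest, median and highest in Δ225 and 0.0501, 0.129 and 0.189 CPM in Δ93. At 0 to 15 counts of Timd4 and 0 to 11 of Cd163 per library, differences between groups were not detectable at this depth.

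F13a1 and Pf4 encode secreted products known from both macrophages and platelets: the A chain of a clotting transglutaminase and a chemokine. F13a1 had 7.99, 3.69 and 3.35 CPM in WT, 10.4, 3.6 and 9.61 CPM in Δ306 and 4.69, 6.09, 8.02 and 4.86 CPM in Δ104, with 3.09, 4.62 and 11.6 CPM as the lowest, median and highest in Δ225 and 2.88, 4.93 and 6.31 CPM in Δ93. Its groups overlapped throughout. Pf4 had 3.39, 1.67 and 2.03 CPM in WT, 2.94, 1.22 and 8.02 CPM in Δ306 and 4.78, 1.23, 2.56 and 2.68 CPM in Δ104. The lowest, median and highest were 0.683, 1.04 and 1.84 CPM in Δ225 and 0.766, 2.00 and 4.10 CPM in Δ93. Δ306 replicate 3 was the highest library, and Δ225 overlapped with Δ306 at replicate 2.

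Pf4 was called lower in Δ225 than in Δ306, at −1.81 ± 0.53 (SE, edgeR adjusted p 0.0268). Without Δ306 replicate 3 the difference was −0.82 and was not called (adjusted p 0.440). Of 8 megakaryocyte genes tested, 3 were called lower in the same comparison, where 13.2% of all genes were called. Among them were Treml1 (−2.33, edgeR adjusted p 0.0112), a receptor of platelet granules, and Itga2b (−1.08, adjusted p 0.0439), the platelet integrin subunit. Treml1 also had its highest Δ306 value in replicate 3, at 1.80 CPM against 0.614 and 0.535 CPM in the other 2. The part of megakaryocytes in the difference of Pf4 was not tested.

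Of 33 further macrophage genes from a separate list, 31 were tested in the deletion table. In Δ306, where 6.43% of all genes were called, there were 1 higher and 3 lower than WT, and in Δ93, where 14.1% were, also 1 higher and 3 lower, with medians of 0.16 and −0.14. Δ225 and Δ104 had 0 calls (0.209% and 0.061% of all genes). Meis1 KO had 1 higher and 0 lower of 30 (1.8% of all genes), with 23 below 0 and a median of −0.20.

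The called genes of that list include Irf8, a regulator that other cells can also express. Irf8, a transcription factor of monocytes and dendritic cells, had 20.8, 22.7 and 18.3 CPM in WT, 5.57, 5.00 and 4.03 CPM in Δ306 and 3.03 to 7.04 CPM in Δ93, without overlap. It was called lower in Δ306 (−2.08 ± 0.44, edgeR adjusted p 0.0107) and Δ93 (−2.11 ± 0.35, adjusted p 0.0011). In Meis1 KO Irf8 was called higher, with 34.1, 29.0, 33.9 and 34.9 CPM against 22.3, 23.9 and 19.1 CPM in WT (0.60 ± 0.11, adjusted p 0.0425).

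Of the ligands that recruit or sustain macrophages, 5 of 9 were tested, and the growth factor Csf2 was at 0 in 21 of 22 libraries. Cx3cl1, the ligand of Cx3cr1, had 38.0, 40.2 and 34.4 CPM in WT, 15.8, 14.1 and 17.8 CPM in Δ306 and 15.9 to 23.0 CPM in Δ93. It was called lower in both, at −1.24 ± 0.34 (edgeR adjusted p 0.0358) and −0.96 ± 0.29 (adjusted p 0.0284). All Δ225 and Δ104 libraries were also below WT (5.37 to 27.5 and 19.7 to 24.7 CPM), at −0.92 and −0.76, which was not called (adjusted p 0.159 and 0.265). Tgfb1, a cytokine that microglia need, was called lower in Δ306 (−1.23, adjusted p 0.0110) and Δ93 (−1.13, adjusted p 0.00237). Cxcl12, a chemokine for blood progenitors and germ cells, was called lower in Δ93, with 45.5 to 72.5 CPM against 316 to 428 CPM in WT (−2.64 ± 0.52, adjusted p 0.00263). In total 2 of 5 tested ligands were called lower in Δ306 (6.43% of all genes were called) and 3 of 5 in Δ93 (14.1%), with none higher, and 0 of 5 in Δ225, Δ104 and Meis1 KO.

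**Figure D5:**
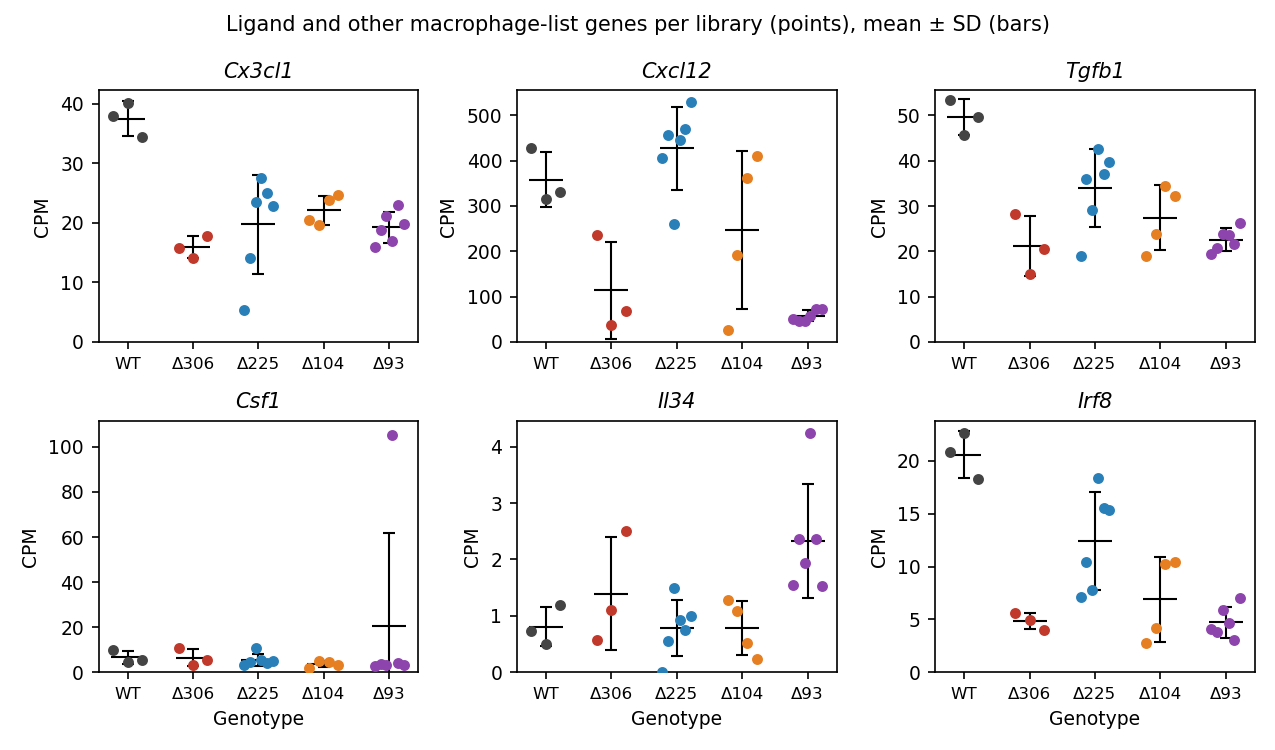
Levels (CPM, vertical axes) of 5 ligand genes and of Irf8 in each library of the deletion table by genotype, with points for libraries and bars for mean ± SD. The 3 WT libraries lie above all Δ306 and Δ93 libraries for Cx3cl1, Tgfb1 and Irf8, and 1 Δ93 library has 105 CPM of Csf1.

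The ligands of Csf1r were not called against WT. Csf1 had 10.02, 4.70 and 5.51 CPM in WT and 10.7, 3.36 and 5.44 CPM in Δ306. In Δ93 it was at 105 CPM in replicate 4 and at 2.92 to 3.98 CPM in the other 5 libraries, and no difference between groups was called (Δ93 against WT: 1.59 ± 1.01, edgeR adjusted p 0.317). Replicate 4 is also the Δ93 library with the highest sum of the macrophage genes. Il34 had 0.728, 0.505 and 1.19 CPM in WT and 1.53 to 4.24 CPM in Δ93, and was called lower in Δ225 than in Δ93 (−1.52 ± 0.51, adjusted p 0.0401). Against WT its difference in Δ93 was 1.53 ± 0.66 (adjusted p 0.125), not called.

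Of 12 genes for the uptake of dying cells, 4 were called lower in Δ306, where 6.43% of all genes were called. In Δ93, where 14.1% were, 1 was called higher and 4 lower. The medians over the list were −0.76 in Δ306 and −0.41 in Δ93. In Δ225 and Δ104 there were 0 calls (0.209% and 0.061% of all genes) and in Meis1 KO 1, lower (1.8% of all genes). Pros1, a bridging ligand between dying cells and TAM receptors, was called lower in Δ306 (−1.15, edgeR adjusted p 0.0237) and Δ93 (−0.90, adjusted p 0.0172), while Gas6, the other such ligand, was called higher in Δ93 (1.24, adjusted p 0.0106). Megf10, an engulfment receptor, was called lower in Δ93 (−3.08, adjusted p 0.00189). Other cells of the gonad can express these genes, and the share of macrophages in them was not measured.

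Some lists of other cells were also mostly below WT in Meis1 KO. Of 12 erythroid genes tested, 10 were below 0 and 2 were called lower (1.8% of all genes were called). The called genes were Alas2 (−1.03, edgeR adjusted p 0.0340), the first enzyme of haem synthesis, and Hba-a1 (−1.0, adjusted p 0.0352), an alpha globin. Of 8 megakaryocyte genes, 7 were below 0 with a median of −0.88 and 0 called, and of 6 monocyte and neutrophil genes 5 were below 0 with a median of −0.55 and 0 called. The 4 mast cell genes and the 4 lymphoid genes tested had medians of 0.21 and 0.05, each with 2 of 4 above 0. Lists of cells other than blood were below WT too: 6 of 6 germ cell genes, 7 of 8 Sertoli cell genes and 6 of 7 mesonephric genes were below 0. Of the fetal Leydig and pre-granulosa genes, 6 of 6 and 6 of 8 were above 0. The 10 endothelial genes had a median of 0.04 with 7 above 0, and none was called. The summed erythroid level was 4889 to 6509 CPM in WT and 3393 to 5097 CPM in Meis1 KO, and its part in the values of the macrophage genes was not tested.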

How the data were processed

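Stranded libraries were prepared from poly(A) RNA of fetal XY gonads (NEBNext Ultra II Directional), per the labels' protocols. STAR (version 2.7.10a for the samples where one is given), featureCounts of Subread, DESeq2 and the build mm10 are named in the submitters' processing notes, and settings and annotation are not given in the sources used here. The authors deposited raw read counts per gene in 3 tables, and these whole-number counts were used as deposited. Symbols came from a deposited comparison table, used only as a map.

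The quasi-likelihood test of edgeR 4.0.16 (R 4.3.3), after filterByExpr and TMM scaling, was run in 1 fit of the 22 libraries of the deletion table (22941 genes tested, residual degrees of freedom 17) and 1 of the 7 libraries of the Meis1 table (16791 genes, 5). A gene was called at a Benjamini-Hochberg adjusted p under 0.05 over all genes tested. SE is the unshrunk log2 fold change over the square root of F, and intervals are 95%. The script was tested on simulated data. CPM are relative to TMM-scaled totals, and deviations use log2 CPM with a prior count of 2. Depths and intervals cover counting error and the spread between libraries, and the reads carry no molecular identifiers. Replicate libraries of a group differed beyond counting noise in every pair. Replicate numbers are shared between groups, but same-numbered libraries did not deviate together in any comparison by the rule that every pair's correlation exceeds 0.1.

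Alternatives were DESeq2 1.42.0, RLE or no composition factor, 2 other low-count filters, an adjusted p under 0.01, a replicate block, fits of the 2 groups alone, the smaller table of WT and Δ306 (whose mutant columns carry no deletion name and were taken as Δ306 from the series' design text), and leaving out each replicate. The 33 genes and the other gene lists were chosen with earlier results of these data known. By the rule for named genes, 16 of the 33 and any other gene called are given with values per library or ranges of a group. Of other lists, the rule takes up to 3 called genes with the smallest adjusted p, and Csf1, Il34 and Cx3cl1. Not all of these called genes are named here, and several are given as fold changes only. Further genes of the set are named where an unadjusted p or a lack of overlap singles them out, chosen after their values were seen. Gene positions come from GENCODE M21 on GRCm38 and promoters from RefSeq. A pair of genes that this rule would name is not reported here.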

Additional observations from a re-analysis of the deposited data

Results flagged for a closer look

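Single libraries stood far from the others of their genotype in 21 of 128 tests of 1 gene in 1 group of 4 to 6 libraries (Dixon's gap over range at 95%). For normally distributed values chance would give about 6.4. CPM were used without a log scale and can be skewed at few reads, and the genes share libraries. The excess over 6.4 was therefore not tested. Of these, 8 were Δ93 replicate 4, each the highest of 6: Spi1 (2.55 CPM), C1qa (8.14), C1qb (10.5), C1qc (9.34), Ctss (6.92), Cd14 (2.07), Ly86 (1.99) and Lyve1 (3.29). Δ225 replicate 1 was low for C1qa (1.27 CPM), C1qb (2.05) and C1qc (1.76), and Δ225 replicate 3 was high for Cybb (3.00), Mrc1 (20.3) and F13a1 (11.6). In Δ104, replicate 2 was low for Tyrobp (1.08 CPM) and Cd14 (0.344), and replicate 1 for Cybb (1.03). In Meis1 KO, replicate 3 was high for Laptm5 (9.63 CPM), Cd68 (2.40) and Itgam (1.02), and replicate 4 was low for Cybb (0.837). The 8 genes of Δ93 replicate 4 share 1 library and are not 8 independent events.

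Differences between deletions passed edgeR's test for 2 genes: Itgam in Δ225 against Δ93 (log2 fold change 1.44) and Pf4 in Δ225 against Δ306 (−1.81).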

How the results depend on the processing

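The absence of calls against WT held for Δ306, Δ225 and Δ104 under every alternative run, and with each replicate left out (0 to 0 genes). For Δ93 against WT it ranged from 0 to 1, the 1 being Mpeg1 without Δ93 replicate 4. For Meis1 KO it was 0 except 1 with DESeq2, and 0 with each replicate left out.

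The calls between deletions were less stable. In Δ225 against Δ93 the count was 1, became 2 with RLE, 3 with DESeq2 (Ccr2, Mpeg1 and Itgam) and 0 with no low-count filter or an adjusted p under 0.01, and ranged from 0 to 3 with a replicate left out. In Δ225 against Δ306 it was 1, became 2 with DESeq2 (Ccr2 and Pf4) and 0 with an adjusted p under 0.01 or a fit of the 2 groups alone, and ranged from 0 to 1 with a replicate left out. With a mean CPM of at least 1, Itgam was not tested and Mpeg1 was called in its place. The cause of these changes was not tested. In the other 4 comparisons of deletions the count stayed at 0 under the alternatives run. Itgam in Δ225 against Δ93 and Pf4 in Δ225 against Δ306 kept their direction under every alternative in which they were tested. Medians over the set did change sign with single libraries left out, as given in the comparisons.

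Same-numbered libraries had correlations of −0.31 to 0.48 and are not taken as pairs. With the replicate block, the count in Δ225 against Δ306 was 0 (Pf4 −1.50, edgeR adjusted p 0.0551), in Δ225 against Δ93 it stayed at 1, and in the other 9 comparisons at 0.

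Low depth limits Timd4, Cd163, Itgam, Cd14, Cd52, Aif1, Spi1, Tyrobp, Ms4a7 and Lyve1, each with 4 counts or fewer in at least 1 library.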
